A study of Rattus norvegicus with 40 samples.

Results

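Expression of 10 genes of bile acid synthesis, conjugation, uptake and sensing was measured by RNA-seq in rat liver during diethylnitrosamine (DEN) hepatocarcinogenesis. The genes were Cyp7a1, Cyp8b1, Cyp27a1, Cyp7b1, Baat, Slc27a5, Slc10a1, Slco1b2, Nr1h4 and Nr0b2. They were taken by symbol from the 17337 genes of the count tables, and all 10 had enough counts to be tested in every comparison. DEN is a carcinogen that liver enzymes activate into a DNA-alkylating agent. Male Fischer 344 rats received it once a week from 7 weeks of age at 50 mg/kg, as intraperitoneal injections in olive oil. Rats were sampled after 8 weeks of injections (week 8), after 14 weeks of injections (week 14), or after 14 weeks of injections and 6 weeks without DEN (week 20). In DEN-treated rats the non-tumoral liver (NT) was sampled at all 3 times, and 2 tumor nodules per rat at weeks 14 and 20. Untreated rats of the same age gave liver at the same times (no DEN), and the sources used here mention no injection of oil alone in them. Each group held 4 rats, so that 40 libraries came from 24 rats. Rats whose number begins with F made up 2 of 4 DEN-treated rats at week 8 and 1 of 4 at weeks 14 and 20, and no untreated rat carried such a number. Liver samples of a group came from separate animals, and the 8 nodules of a week came from 4 rats.

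Hepatocytes turn cholesterol into bile acids by a classic route that CYP7A1 opens, with CYP8B1 setting the share of cholic acid, and by an alternative route that runs through CYP27A1 and CYP7B1. The new acids are activated by the ligase encoded by Slc27a5 and joined to taurine or glycine by BAAT. Bile acids returning from the gut are taken up across the sinusoidal membrane by NTCP (Slc10a1) and OATP1B2 (Slco1b2). Inside the cell they bind the nuclear receptor FXR (Nr1h4), which induces SHP (Nr0b2), a corepressor known to restrain Cyp7a1 and Cyp8b1.

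Between 20528515 and 160622633 read pairs were counted per library, with a median of 30477421, and the deepest was the week 20 NT library of rat H26. The smallest count of any of the 10 genes in any library was 46, for Cyp7b1. Levels are CPM, the counts of a gene relative to the library size, scaled by TMM, a correction for differences in RNA composition. The 12 hepatocyte markers, Alb among them, summed to between 299815 and 352251 CPM in the no DEN libraries. Their sum lay between 197214 and 311998 CPM in NT liver and between 138176 and 265335 CPM in nodules, and none was at 0. The 7 cholangiocyte markers in the files summed to 44.2 to 56.8 CPM in no DEN liver, 54.2 to 111 in NT liver and 67.9 to 232 in nodules. The 6 markers of dividing cells summed to 12.4 to 26.7, 22.5 to 175 and 31.7 to 195 CPM in the same order. In bulk liver, fewer hepatocytes and less RNA per hepatocyte cannot be told apart.

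**Figure D1:**
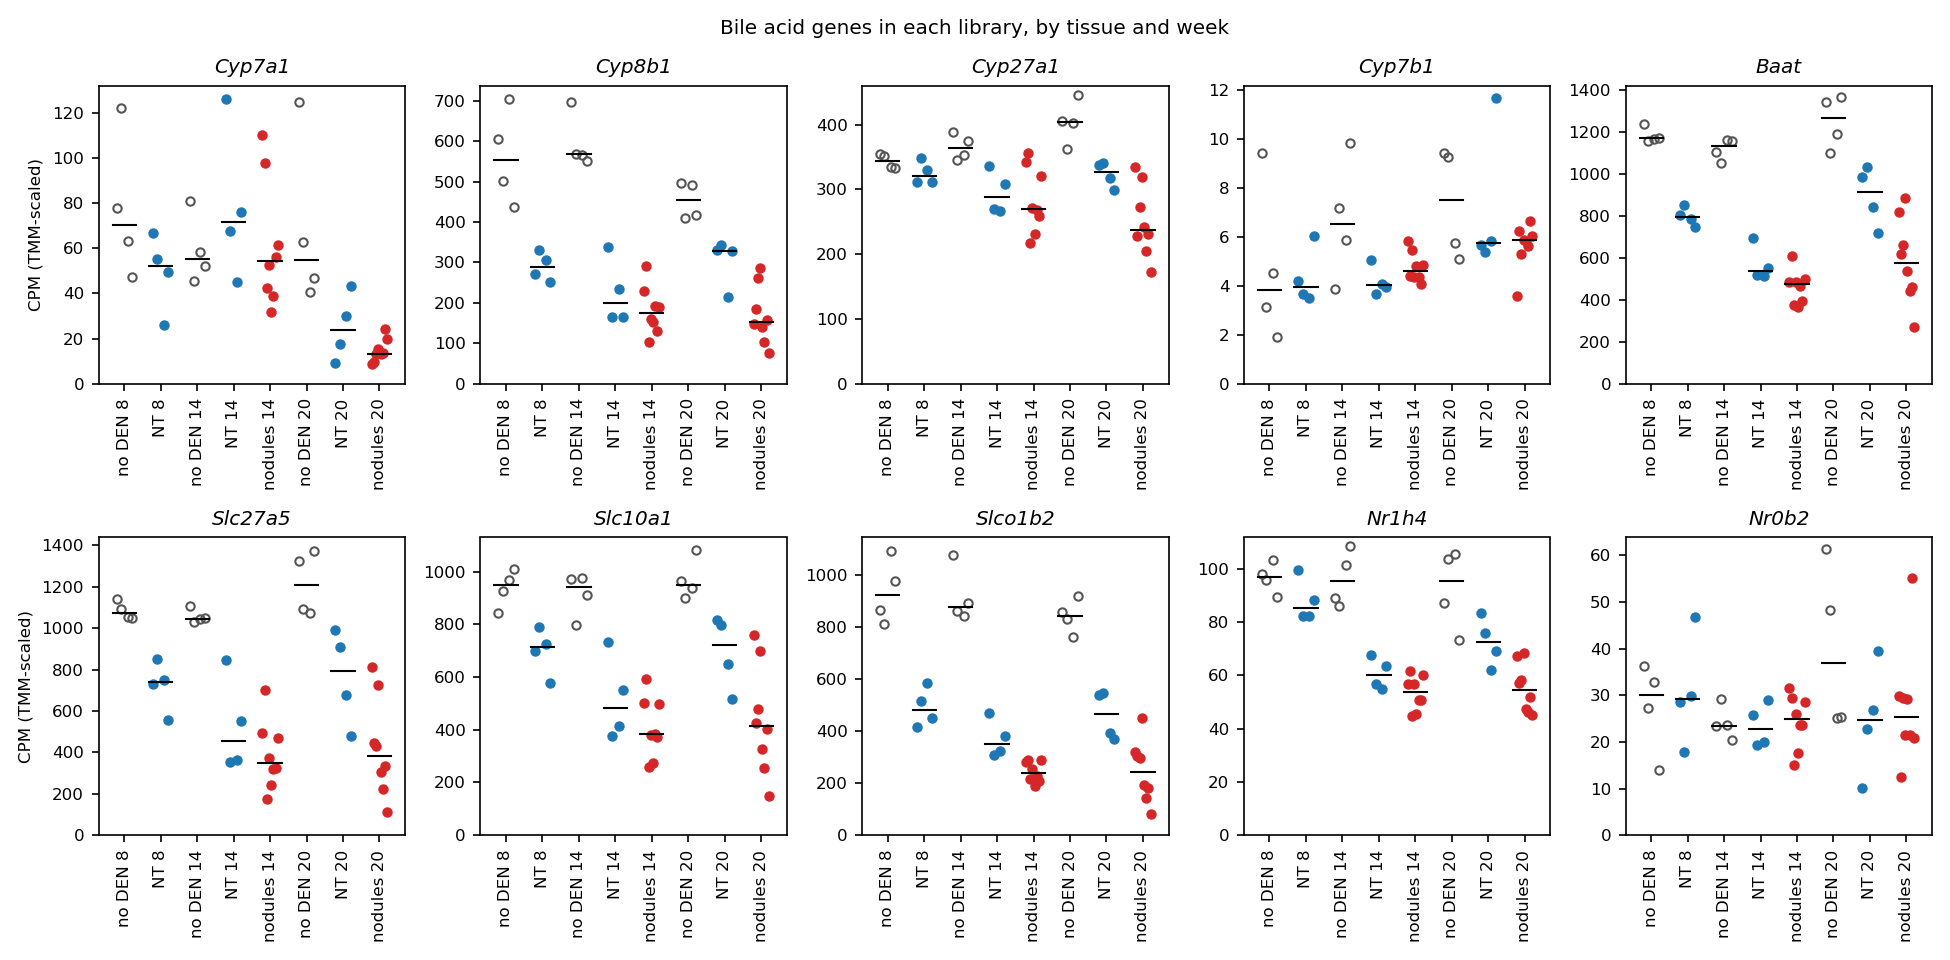
CPM (linear axis from 0) of each of the 10 genes in the 40 libraries, by tissue and week; open circles are no DEN liver, blue circles NT liver, red circles single nodules (2 per rat), and the bar is the median of the libraries. Slco1b2 lay at 760.1 CPM or above in all no DEN libraries and at 584 CPM or below in all NT and nodule libraries, whereas Nr0b2 values overlapped in all groups.

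Against no DEN liver of the same age, all 4 genes of conjugation and uptake were called lower in NT liver of week 14 and in nodules of both weeks, and 3 and 2 of them in NT liver of weeks 8 and 20. The quasi-likelihood test of edgeR with Benjamini-Hochberg adjustment was used, and calls needed a log2 fold change of 0.5 or more either way with an adjusted p not above 0.05. In NT liver 4 of the 10 genes were called lower at week 8, beside 5.21% of all genes tested (21.7% called either way), and 7 at week 14, beside 9.85% (32.6% either way). At week 20, after 6 weeks without DEN, 3 were called lower in NT liver, beside 3.82% of all genes (18.1% either way). In nodules 6 were called lower at week 14 and 8 at week 20, beside 15.2% of all genes tested in each (39.1% and 38.8% either way). None of the 10 was called higher in any of these comparisons, where 16.5%, 22.8%, 14.3%, 23.9% and 23.6% of all genes were. The median log2 fold change of the 10 genes was -0.49, -0.73 and -0.52 in NT liver at weeks 8, 14 and 20, and -1.04 and -1.16 in nodules at weeks 14 and 20. The median over all genes tested lay between -0.01 and 0.02 in those comparisons. Nodules and NT liver were set against the same untreated rats, so their changes are not independent. Without TMM, scaled by library totals alone, the median of all genes moved to 0.19, 0.44 and 0.24 in NT liver and to 0.57 and 0.51 in nodules, and the calls among the 10 genes became 2, 5 and 1 in NT liver and 6 and 6 in nodules. The same fits called 2669 of 10812, 5133 of 11016 and 2689 of 10827 genes in NT liver, and 6343 of 11316 and 5904 of 11199 in nodules. Cyp7a1 in NT liver (0.82) and Nr0b2 in nodules (0.55), both at week 14, were then called higher. All changes below are relative to the TMM scale.

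**Figure D2:**
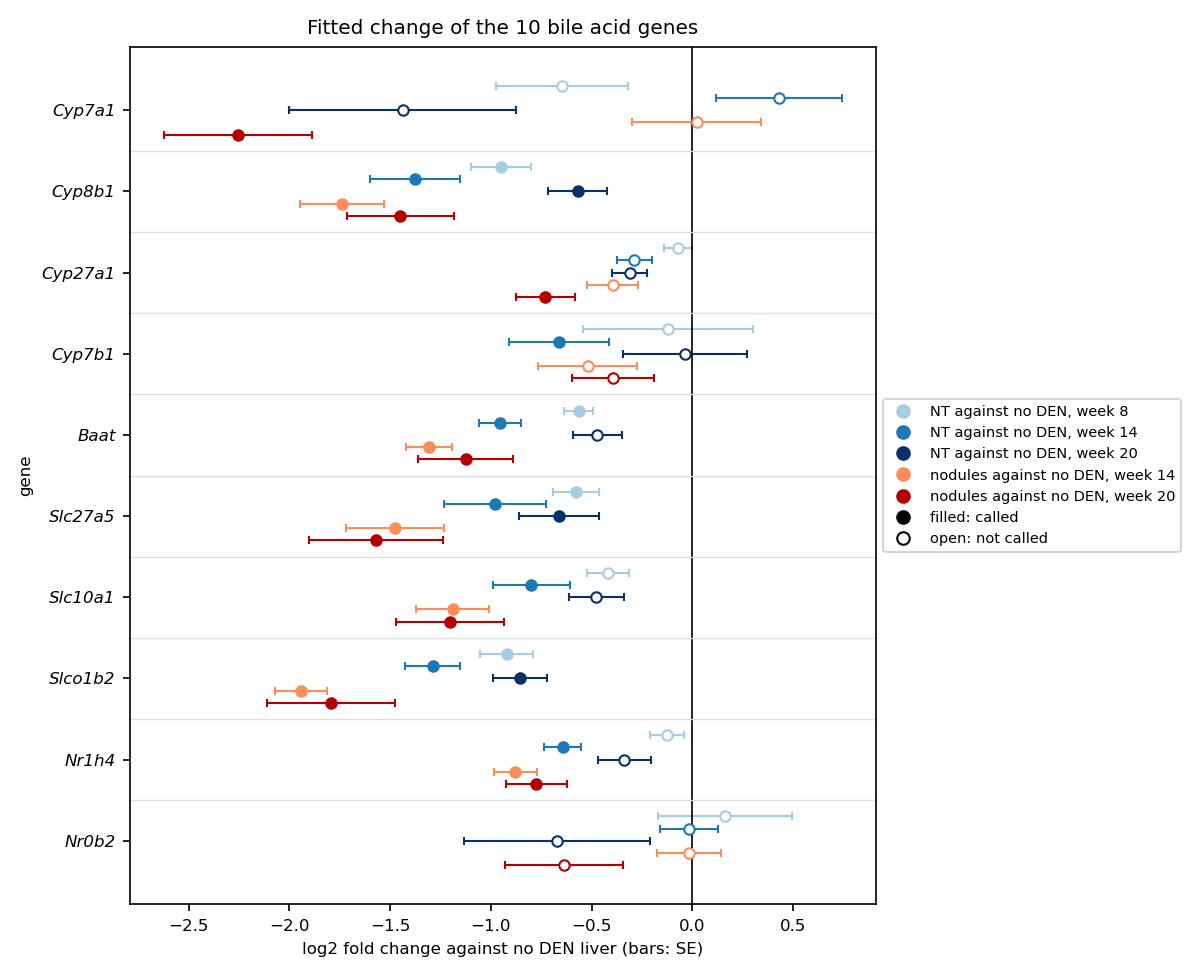
Log2 fold change of each of the 10 genes against no DEN liver of the same age in the edgeR fits, with bars of 1 SE; filled circles were called (0.5 or more either way with adjusted p not above 0.05). Slco1b2, Slc27a5 and Cyp8b1 were called lower in all 5 comparisons, and Nr0b2 in none.

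Slco1b2, which encodes the sinusoidal carrier OATP1B2, stood at 809.8, 866, 978 and 1093 CPM in the 4 no DEN rats of week 8 and at 417, 449.5, 515 and 584 CPM in NT liver. At week 14 no DEN liver held 844, 862, 891 and 1078 CPM, NT liver 309, 323, 381 and 470.5 CPM, and the 8 nodules 188 to 288 CPM with a median of 239. All NT and nodule libraries lay below all no DEN libraries at each time, and at week 14 all nodules also lay below all NT libraries. By week 20 the no DEN values were 760.1, 829, 856 and 920.1 CPM, the NT values 371, 393, 538 and 548 CPM, and nodules ran from 80.3 to 452 CPM with a median of 244. The nodule range at week 20 was the wider, and 1 nodule of rat H25 exceeded the NT liver of rats H26 and H28. Slco1b2 fell by 0.92 (SE 0.13), 1.29 (SE 0.14) and 0.86 (SE 0.13) on the log2 scale in NT liver at weeks 8, 14 and 20 (edgeR, adjusted p = 0.000513, 3.66e-05 and 0.00151). In nodules it was 3.84-fold lower at week 14 and 3.47-fold lower at week 20 (edgeR, adjusted p = 1.12e-05 and 0.00126). These calls held when each rat was left out and under the other tools, scalings and fits run, but those of NT liver at weeks 8 and 20 did not pass the stricter threshold given below.

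Slc10a1 encodes NTCP, the sodium-dependent carrier of conjugated bile acids. It was at 843, 927, 969 and 1011 CPM in no DEN liver at week 8 and at 578, 699, 726 and 788 CPM in NT liver, without overlap. The log2 difference of -0.42 (SE 0.10) was under the size threshold (edgeR, adjusted p = 0.00993). At week 14 no DEN liver held 797, 912, 974 and 975 CPM, NT liver 375, 413, 552 and 735 CPM, and the nodules 257 to 593 CPM with a median of 383. Rat F06 gave the highest NT value and the highest nodule values, and Slc10a1 fell by 0.80 (SE 0.19) in NT liver and by 1.19 (SE 0.18) in nodules (edgeR, adjusted p = 0.00550 and 0.000658). The NT call of week 14 was lost with totals alone, at -0.39. In week 20 rats the no DEN values were 899.8, 939, 963 and 1083 CPM, the NT values 517, 648, 798 and 815 CPM, and the nodules ran from 149 to 762 CPM with a median of 415. The nodule change of -1.20 (SE 0.27) was called, and the NT difference of -0.48 (SE 0.13) was not (edgeR, adjusted p = 0.00429 and 0.0235). DESeq2 called the NT difference of week 20, at -0.51 (SE 0.15) (adjusted p = 0.00333). In edgeR it passed in 5 of 8 fits that left out a rat (F03, H13, H14, H15 or H25), with values from -0.56 to -0.36.

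Slc27a5, the bile acid ligase gene, was at 1049, 1052, 1093 and 1140 CPM in no DEN liver of week 8 and at 559, 732, 749.9 and 849 CPM in NT liver. At week 14 the 4 untreated rats lay between 1032 and 1106 CPM, NT liver at 356, 365, 549.8 and 847 CPM, and the nodules between 176 and 700.1 CPM with a median of 347. Untreated rats were thus close together and DEN-treated rats were spread, with rat F06 again the highest at week 14. At week 20 no DEN liver held 1072, 1093, 1325 and 1375 CPM, NT liver 482, 676, 910.3 and 991 CPM, and the nodules 113 to 811 CPM with a median of 383. No NT or nodule library reached the lowest no DEN library of its week. Slc27a5 fell by 0.58 (SE 0.11), 0.98 (SE 0.25) and 0.66 (SE 0.20) in NT liver at weeks 8, 14 and 20 (edgeR, adjusted p = 0.00312, 0.0102 and 0.0307). In nodules it was 2.78-fold lower at week 14 and 2.97-fold lower at week 20 (edgeR, adjusted p = 0.00106 and 0.00310). The week 20 NT call was lost without rat H13, H16, H26 or H28, with values from -0.81 to -0.50 over the rats left out, and the week 8 call without rat H18 (-0.47). Both of these NT calls were also lost with totals alone (-0.39 at week 8 and -0.46 at week 20) and in a fit of all 8 groups (-0.57 and -0.68).

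Baat, the gene of the amino acid conjugating enzyme, varied little among untreated rats, at 1160, 1169, 1172 and 1241 CPM at week 8, against 747, 788, 806 and 850.5 CPM in NT liver. At week 14 it was at 1052, 1108, 1159 and 1162 CPM without DEN, at 514, 519, 552 and 694 CPM in NT liver, and at 368 to 609.9 CPM in nodules with a median of 474. At week 20 the no DEN values were 1100.0, 1194, 1346 and 1366 CPM, the NT values 720.3, 845, 986 and 1036 CPM, and the nodules ran from 269 to 887 CPM with a median of 578. Again no library of DEN-treated rats reached the untreated range. Baat fell by 0.56 (SE 0.07) at week 8 and by 0.95 (SE 0.11) at week 14 in NT liver (edgeR, adjusted p = 0.000284 and 4.56e-05), the former being lost with totals alone (-0.37). It differed by -0.47 (SE 0.12) at week 20, short of the size threshold (edgeR, adjusted p = 0.0158). DESeq2 called it, at -0.50 (SE 0.13) (adjusted p = 0.000967). In edgeR it was past the threshold without rat F03, H14, H15 or H25, with a range of -0.55 to -0.39. Baat was 2.48-fold lower in nodules at week 14 and 2.18-fold lower at week 20 (edgeR, adjusted p = 3.35e-05 and 0.00299).

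Cyp8b1, the sterol 12-alpha-hydroxylase that directs synthesis to cholic acid, was at 438, 500.4, 604.5 and 705 CPM in no DEN liver of week 8 and at 252, 271, 306 and 331 CPM in NT liver. At week 14 untreated liver held 551, 567, 567 and 697 CPM, NT liver 166, 166, 234 and 339 CPM, and nodules 104 to 291 CPM with a median of 175.5. Week 20 values were 411, 418.5, 492 and 497 CPM without DEN, 215, 328, 330.2 and 344 CPM in NT liver and 74.7 to 286 CPM in nodules with a median of 152. All DEN-treated libraries were below all untreated libraries of their week, and the NT values of week 20 were closer to the untreated ones than those of week 14. Cyp8b1 fell by 0.95 (SE 0.15), 1.38 (SE 0.22) and 0.57 (SE 0.15) in NT liver (edgeR, adjusted p = 0.00107, 0.000834 and 0.0162), and by 1.74 (SE 0.21) and 1.45 (SE 0.27) in nodules (edgeR, adjusted p = 0.000182 and 0.00150). The week 20 NT call rested on rat H26, the lowest value and the deepest library: without it the change was -0.43 (SE 0.10). It was also lost with totals alone (-0.36) and in a fit of all 8 groups (-0.59). The test of whether the NT effect differed between weeks 14 and 20 gave a difference of 0.81 (SE 0.29) that did not pass (edgeR, adjusted p = 0.175), but without rat F06 it was 1.08 (SE 0.22) and passed (edgeR, adjusted p = 0.0170), as it did without the F rats, at 1.04 (SE 0.23) (edgeR, adjusted p = 0.0400).

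Cyp8b1 and Slco1b2 were also the genes of the set past a stricter threshold, a log2 fold change of 1 or more either way with an adjusted p not above 0.01, in NT liver of week 14. That made 2 of 10 lower, beside 2.10% of all genes (15.2% either way). For weeks 8 and 20 the edgeR count was 0 of 10, beside 0.620% and 0.333% lower (7.91% and 5.22% either way). At an unadjusted p under 0.05 in edgeR there were 5 and 8 of the 10, beside 4941 of 10812 and 4355 of 10827 genes. The 5 at week 8 were near the share of all genes.

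Cyp7a1, the rate-limiting enzyme gene of the classic route, followed another course. At week 8 its values overlapped, at 47.2, 63.1, 77.9 and 122 CPM without DEN and 26.1, 49.4, 55.3 and 66.7 CPM in NT liver. At week 14 no DEN liver held 45.7, 52.2, 58.4 and 80.8 CPM, NT liver 45.1, 67.7, 76.0 and 126 CPM, and nodules 31.9 to 110.2 CPM with a median of 54.3. The highest Cyp7a1 values of week 14 were those of rat F06 in both tissues, and neither NT liver (0.43, SE 0.31) nor nodules (0.02, SE 0.32) differed from no DEN liver past the threshold (edgeR, adjusted p = 0.279 and 0.962). At week 20 the untreated rats were at 40.6, 46.9, 62.6 and 125 CPM, NT liver at 8.98, 17.8, 29.9 and 43.1 CPM, and the 8 nodules between 8.82 and 24.04 CPM with a median of 13.3. All 8 nodules were below all untreated rats, whereas the NT liver of rat H28 exceeded the lowest of them. Cyp7a1 fell by 2.26 (SE 0.37) in week 20 nodules (edgeR, adjusted p = 0.000878), 4.77-fold and the largest fold among the 10 genes in any comparison with no DEN liver, and the range over the 17 alternative settings was -2.50 to -1.74. In NT liver the week 20 difference of -1.44 (SE 0.56) was not called (edgeR, adjusted p = 0.102). It passed with DESeq2 at -1.48 (SE 0.59) (adjusted p = 0.0433) and in a fit over all 8 groups. The nodule effect was lower at week 20 than at week 14 by 2.29 (SE 0.53) on the log2 scale, with an unadjusted p of 0.000558 that did not pass the edgeR adjustment (adjusted p = 0.290). Such differences were called for 0.0862% of all genes, 0.0775% lower and 0.00862% higher. DESeq2 gave -2.28 (SE 0.52) for this difference and called it (adjusted p = 0.00871).

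**Figure D3:**
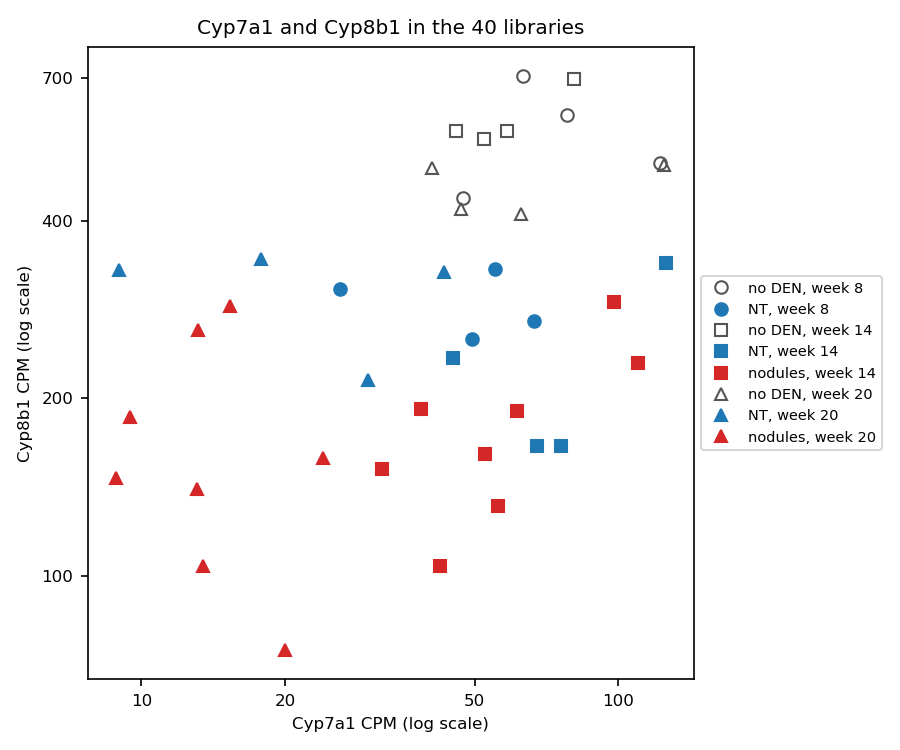
Cyp7a1 against Cyp8b1 in the 40 libraries, both in CPM on log axes; marker shape gives the week (circle 8, square 14, triangle 20), open grey markers are no DEN liver, blue NT liver and red nodules. Week 14 nodules lay low on the Cyp8b1 axis with Cyp7a1 between 31.9 and 110.2 CPM, and week 20 nodules lay low on both axes.

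The number of Cyp8b1 counts per Cyp7a1 count within a library is given as a description, with no test. At week 8 its median was 8.52 in untreated liver (range 4.09 to 11.2) and 5.54 in NT liver (4.06 to 11.7). It was 10.1 in untreated liver at week 14 (range 8.63 to 12.4), 2.57 in NT liver (2.18 to 5.18) and 3.02 in nodules (2.08 to 4.97). At week 20 it was 7.74 in untreated liver (3.98 to 12.1), 13.5 in NT liver (7.18 to 36.8) and 13.7 in nodules (3.74 to 19.9). At week 14 NT liver and nodules overlapped each other and lay below all untreated libraries, and at weeks 8 and 20 all groups overlapped. As transcript lengths differ, the ratio compares libraries and not the abundance of the transcripts.

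Of the alternative route, Cyp27a1, the mitochondrial sterol 27-hydroxylase gene, was among the least variable. At week 8 it lay between 333 and 355 CPM without DEN and between 311 and 349 CPM in NT liver. At week 14 the ranges were 345 to 389 CPM without DEN, 267 to 335 CPM in NT liver and 217 to 355 CPM in nodules. At week 20 they were 362 to 446, 299 to 341 and 172 to 335 CPM in the same order. Only the week 20 nodules passed, with a fall of 0.73 (SE 0.15) (edgeR, adjusted p = 0.00240), and all 8 lay below the untreated rats. That call was lost with totals alone, at -0.25. The NT differences of -0.29 (SE 0.09) at week 14 and -0.31 (SE 0.09) at week 20 were too small to be called (edgeR, adjusted p = 0.0161 and 0.0215). The week 14 differences of Cyp27a1 in NT liver and nodules (-0.40, SE 0.13) had the opposite sign, 0.13 and 0.17, when libraries were scaled by totals alone.

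Cyp7b1, the oxysterol 7-alpha-hydroxylase gene, had the lowest counts of the set. It was at 1.92, 3.12, 4.52 and 9.45 CPM in untreated liver at week 8 and at 3.49, 3.68, 4.20 and 6.04 CPM in NT liver. At week 14 untreated rats held 3.86, 5.88, 7.19 and 9.84 CPM, NT liver 3.65, 3.96, 4.09 and 5.04 CPM and nodules 4.08 to 5.84 CPM. The week 14 values overlapped, and the NT fall of 0.66 (SE 0.25) was just past the threshold (edgeR, adjusted p = 0.0454). It was lost in 6 of 8 fits that left out a rat, H10, H11, H12, H21, H22 or H23, with values from -0.86 to -0.41, with totals alone (-0.24) and in a fit of all 8 groups (-0.69). In week 20 rats Cyp7b1 lay between 5.09 and 9.45 CPM without DEN, between 5.38 and 11.7 CPM in NT liver and between 3.59 and 6.65 CPM in nodules, and NT liver was not called (-0.04, SE 0.31; edgeR, adjusted p = 0.942). The nodule differences of -0.52 (SE 0.25) at week 14 and -0.40 (SE 0.20) at week 20 were not called (edgeR, adjusted p = 0.108 and 0.125). They were called without rat H09 at week 14 (-0.72; edgeR, adjusted p = 0.0171) and without rat H16 at week 20 (-0.55; edgeR, adjusted p = 0.0362), and had the opposite sign, 0.05 and 0.10, with totals alone.

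Nr1h4, the FXR gene, was at 89.3, 95.7, 98.1 and 103 CPM in no DEN liver of week 8 and at 82.3, 82.4, 88.3 and 99.7 CPM in NT liver, a difference of -0.13 (SE 0.09) that was not called (edgeR, adjusted p = 0.278). At week 14 untreated liver held 86.1, 89.0, 102 and 109 CPM, NT liver 55.1, 57.0, 63.4 and 67.7 CPM, and nodules 44.6 to 61.7 CPM with a median of 53.6. Neither NT liver nor nodules overlapped untreated liver at week 14. Nr1h4 fell by 0.64 (SE 0.09) in NT liver and by 0.88 (SE 0.11) in nodules (edgeR, adjusted p = 0.000206 and 0.000187). The NT effect was lower at week 14 than at week 8 by 0.52 (SE 0.13), the one such difference among the 10 genes that passed in this fit (edgeR, adjusted p = 0.0192), beside 8.96% of all genes, 4.80% lower and 4.16% higher. It passed in all 16 fits that left out a rat, and did not pass in a fit over all 8 groups (-0.56, adjusted p = 0.0755) or with scaling by totals alone (-0.30, adjusted p = 0.0914). For Baat the difference of -0.39 missed the threshold (edgeR, adjusted p = 0.0555) and passed with DESeq2 (-0.40), with RLE scaling (-0.40), without the F rats (-0.45) and without rat H17 (-0.42). Without rat F06, Cyp8b1 (-0.69), Baat (-0.50), Slc27a5 (-0.72) and Slc10a1 (-0.59) passed as well, and the share of all genes in that fit is not given here. At week 20 Nr1h4 was at 73.2, 87.2, 104 and 106 CPM without DEN, 62.1, 69.3, 76.1 and 83.6 CPM in NT liver and 45.2 to 68.5 CPM in nodules. The nodules, all below the untreated rats, differed by -0.77 (SE 0.15) and were called lower, whereas NT liver at -0.34 (SE 0.13) was not (edgeR, adjusted p = 0.00208 and 0.0765). With totals alone the called falls of Nr1h4 kept their direction at -0.23, -0.32 and -0.30 and were no longer called.

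Nr0b2, the SHP gene, was not called in any comparison. At week 8 the NT difference was 0.16 (SE 0.33) (edgeR, adjusted p = 0.734). At week 14 it stood at 20.4, 23.4, 23.6 and 29.2 CPM without DEN, at 19.3, 20.1, 25.7 and 29.1 CPM in NT liver and at 15.0 to 31.6 CPM in nodules. The differences were -0.02 (SE 0.15) in NT liver and -0.02 (SE 0.16) in nodules (edgeR, adjusted p = 0.929 and 0.941). Among week 20 rats, untreated rats spread from 25.1 to 61.3 CPM, NT liver from 10.2 to 39.5 CPM and nodules from 12.5 to 55.2 CPM. The week 20 differences were -0.67 (SE 0.46) in NT liver and -0.64 (SE 0.29) in nodules (edgeR, adjusted p = 0.322 and 0.0900). The nodule difference passed without rat H15 or H16, and with nodule 2 of each rat alone. With scaling by totals alone, Nr0b2 was called higher in week 14 nodules, at 0.55.

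Promoters of Slco1b2, Slc10a1 and Cyp8b1, which were called lower in nodules of both weeks, and of Nr0b2, which was not called, are shown to let their sequences be compared. They were chosen among those with a motif match, after the matches were seen. RefSeq (build GRCr8, not the rn6 build of the counts) gave a promoter for 7 of the 10 genes, 250 bases before to 50 bases after the start. They were searched on both strands for AGGTCA (the core motif of many nuclear receptors), CAAGGNCA (the LRH-1 motif, which contains AGGTCA where N is T), the inverted repeat of AGGTCA with a spacer of 1 base (bound by FXR with RXR) and GTTAAT (the core of the HNF1 motif). These occurred in 16.2%, 6.55%, 0.0269% and 7.45% of all 33469 promoters of the table. Capitals mark the matches, and each sequence reads 5′ to 3′ along the gene.
Slco1b2 (chr4:176282334-176282633, + strand): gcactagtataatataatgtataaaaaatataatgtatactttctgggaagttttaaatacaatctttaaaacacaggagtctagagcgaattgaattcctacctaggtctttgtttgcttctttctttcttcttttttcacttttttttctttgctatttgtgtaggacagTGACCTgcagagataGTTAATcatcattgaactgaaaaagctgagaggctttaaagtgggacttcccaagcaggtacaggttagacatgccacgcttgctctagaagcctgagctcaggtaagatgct
Slc10a1 (chr6:106357895-106358194, - strand): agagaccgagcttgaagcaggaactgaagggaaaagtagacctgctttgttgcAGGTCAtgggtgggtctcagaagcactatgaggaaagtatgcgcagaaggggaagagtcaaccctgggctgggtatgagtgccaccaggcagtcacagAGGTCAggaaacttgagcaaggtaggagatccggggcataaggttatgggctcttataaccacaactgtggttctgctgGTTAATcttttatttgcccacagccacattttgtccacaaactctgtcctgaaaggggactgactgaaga
Cyp8b1 (chr8:130457543-130457842, - strand): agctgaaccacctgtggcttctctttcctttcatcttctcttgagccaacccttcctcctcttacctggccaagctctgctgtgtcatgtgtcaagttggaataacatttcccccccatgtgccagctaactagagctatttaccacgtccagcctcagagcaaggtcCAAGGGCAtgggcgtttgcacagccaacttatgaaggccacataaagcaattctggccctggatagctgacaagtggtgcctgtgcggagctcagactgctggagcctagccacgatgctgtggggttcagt
Nr0b2 (chr5:151062910-151063209, + strand): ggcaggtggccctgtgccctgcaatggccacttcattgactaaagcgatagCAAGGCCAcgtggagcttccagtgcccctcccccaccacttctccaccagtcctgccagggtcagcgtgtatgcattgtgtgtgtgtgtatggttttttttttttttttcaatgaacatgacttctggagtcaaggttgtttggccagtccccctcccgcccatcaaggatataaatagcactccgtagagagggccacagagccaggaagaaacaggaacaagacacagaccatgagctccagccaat
The uptake carriers shared AGGTCA and GTTAAT, which in Slc10a1 began 197, 99 and 20 bases before the start and in Slco1b2 78 and 63 bases before it. Cyp8b1, which fell, and Nr0b2, which was not called, each held a CAAGGNCA match, 82 and 199 bases before the start. Baat and Slc27a5 held no match to the 4 motifs in this window, and the FXR repeat was in none of the 7 promoters. Cyp27a1 held 3 matches, of which 2 overlap. A match is a description of letters and not evidence of binding.

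Nodules were next compared with NT liver of the same rats. At week 14 the mean of the 2 nodules was below the NT liver of the same rat in 4 of 4 rats for Cyp7a1, Cyp8b1, Baat, Slc27a5, Slc10a1, Slco1b2 and Nr1h4. The nodule to NT ratio ran from 0.605 to 0.760 for Slco1b2 and from 0.872 to 0.889 for Nr1h4. For Cyp7b1 it ran from 1.02 to 1.34, above 1 in all 4 rats. At week 20 the mean of the nodules was below NT liver in 4 of 4 rats for Cyp8b1, Cyp27a1, Baat, Slc27a5, Slc10a1, Slco1b2 and Nr1h4, with ratios from 0.354 to 0.682 for Slco1b2 and from 0.391 to 0.634 for Slc27a5. Of the 8 week 20 nodules, none exceeded its own NT liver in these 7 genes, whereas 5 did for Nr0b2. How many of all genes lay below NT liver in every rat or nodule was not counted.

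With rats compared as unpaired groups, no gene of the 11466 tested at week 14 or the 11546 tested at week 20 was called between nodules and NT liver in edgeR, so that percent called was 0.00 and no member passed. At an unadjusted p under 0.05 there were 1348 and 2767 genes, 2 and 7 of the 10 among them. DESeq2 called 35 and 902 genes, with Slco1b2 (-0.62) at week 14 and Slco1b2 (-0.93) and Cyp8b1 (-0.87) at week 20. With the rat as a replicate block, which uses the pairing of tissues within animals, 5 of the 10 genes and 1693 of all genes were called at week 20. They were Slc27a5 (-1.01, SE 0.13), Slco1b2 (-1.06, SE 0.16), Slc10a1 (-0.80, SE 0.13), Baat (-0.70, SE 0.12) and Cyp8b1 (-0.95, SE 0.19), with edgeR adjusted p of 0.000215, 0.00165, 0.000960, 0.00132 and 0.00869. A fit of all 8 groups without the block called the same 5 genes at week 20. Nr1h4 at -0.43 (SE 0.07) and Cyp27a1 at -0.43 (SE 0.10) had adjusted p of 0.00119 and 0.00594 in the blocked edgeR fit and were under the size threshold. At week 14 the block gave no call among the 10 genes, with Slco1b2 at -0.61 (SE 0.08) (edgeR, adjusted p = 0.168). Between NT liver and nodules of week 20, the median log2 difference of the dividing-cell markers was 1.07, that of the cholangiocyte markers 0.98 and that of hepatocyte markers -0.51, none of these markers being called in edgeR without the block, and their part in the result was not tested.

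**Figure D4:**
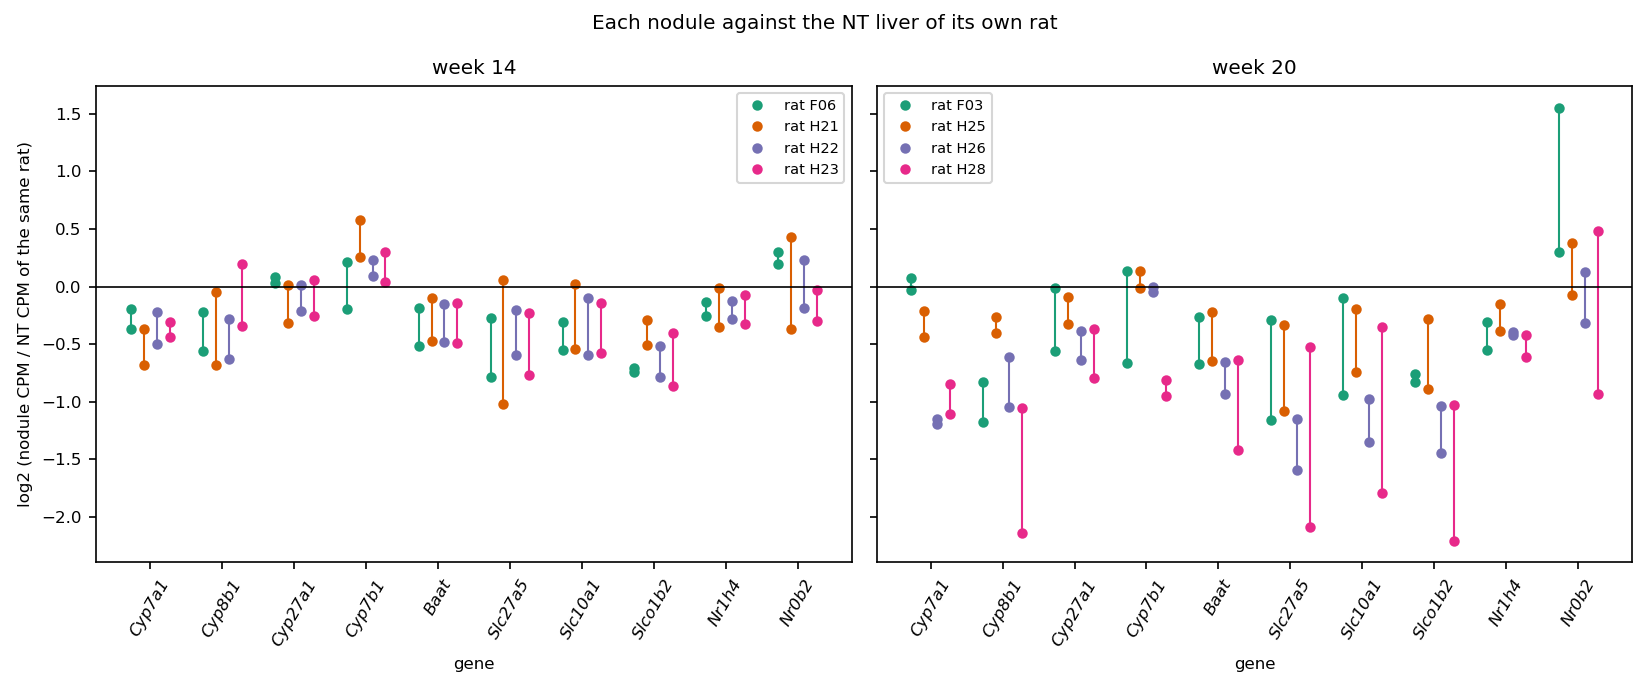
Log2 ratio of each nodule to the NT liver of the same rat for the 10 genes at weeks 14 and 20; each point is a nodule, a line joins the 2 nodules of a rat, colour gives the rat, and 0 is equal expression. At week 20 the points of Cyp8b1, Baat, Slc27a5, Slc10a1 and Slco1b2 lay below 0 in all 4 rats, lowest in nodule 2 of rat H28.

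The 2 nodules of a rat differed from each other by gene. At week 20 the higher nodule exceeded the lower by a median of 1.75-fold over the 4 rats for Slc27a5, 1.63-fold for Slc10a1 and 1.43-fold for Slco1b2, against 1.12-fold for Cyp7a1 and 1.16-fold for Nr1h4. For Nr0b2 it was 1.88-fold, the largest median of the 10 genes. The widest gap of a single rat was in H28, whose nodules held 335 and 113 CPM of Slc27a5. Nodule 2 of H28 also had the lowest hepatocyte marker sum of all libraries, 138176 CPM, and the highest cholangiocyte marker sum, 232 CPM. Its Nr1h4, 45.2 CPM beside 51.9 CPM in nodule 1, differed less. The part of these marker levels in the differences was not tested.

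In untreated liver of different ages no gene was called in edgeR, either between weeks 8 and 14 or between weeks 14 and 20 (percent called 0.00), with 1038 and 670 genes at an unadjusted p under 0.05, 0 and 2 of the 10 among them. DESeq2 called 20 and 18 genes, none of the 10 among them. From week 14 to 20 the largest differences were those of Nr0b2 (0.73, SE 0.33) and Cyp8b1 (-0.39, SE 0.09), and from week 8 to 14 that of Cyp7b1 (0.51, SE 0.50) (edgeR, adjusted p = 0.793, 0.366 and 0.781). Between weeks 14 and 20 no NT effect of the 10 genes differed past the threshold in edgeR, beside 0.738% of all genes (0.373% lower and 0.365% higher), or in DESeq2. In edgeR 4 of the 10 had an unadjusted p under 0.05, beside 1912 of 11245 genes. Without rat F06 Cyp8b1 and Baat (0.60) passed, and the share of all genes in that fit is not given here.

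Of the 10 tested genes of the list of export and other carriers, 2, 4 and 4 were called higher and 4, 2 and 1 lower in NT liver at weeks 8, 14 and 20, and 3 and 4 higher and 3 and 4 lower in nodules at weeks 14 and 20. Of all genes, 16.5%, 22.8% and 14.3% were called higher and 5.21%, 9.85% and 3.82% lower in NT liver, and 23.9% and 23.6% higher and 15.2% lower in nodules. Their median log2 fold changes were -0.43, 0.21 and -0.14 in NT liver and -0.29 and -0.17 in nodules. Abcc3, a sinusoidal exporter known to be induced in cholestasis, was at 2.30 ± 0.542 CPM (SD, n = 4) in untreated liver of week 14, at 86.4 ± 34.8 CPM in NT liver and at 111 ± 27.3 CPM in nodules. Its log2 fold changes were 1.92 (SE 0.30), 5.25 (SE 0.43) and 4.66 (SE 0.31) in NT liver and 5.57 (SE 0.25) and 5.65 (SE 0.27) in nodules, all called. Abcc4, another sinusoidal exporter, rose by 1.92 (SE 0.28) and 1.05 (SE 0.22) in NT liver at weeks 14 and 20 and by 2.24 (SE 0.25) and 1.79 (SE 0.24) in nodules. The uptake carrier gene Slco1a1, on the other hand, fell with Slco1b2, by 1.04 (SE 0.12), 1.19 (SE 0.13) and 0.64 (SE 0.12) in NT liver and by 1.96 (SE 0.12) and 1.75 (SE 0.31) in nodules. Its week 20 NT call was lost with totals alone (-0.42). The gene of the canalicular pump, Abcb11, fell by 0.93 (SE 0.15) and 1.03 (SE 0.20) in nodules, the former call being lost with totals alone (-0.37). Abcg8, a subunit of the sterol exporter, rose at all 3 times, by 1.78 (SE 0.55), 1.49 (SE 0.22) and 2.21 (SE 0.36) in NT liver and by 1.66 (SE 0.34) and 2.54 (SE 0.41) in nodules. Its level was low, with means of 1.11, 1.15 and 1.28 CPM in untreated liver of weeks 8, 14 and 20. These libraries held 12 to 43, 25 to 36 and 8 to 42 counts of Abcg8.

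**Figure D5:**
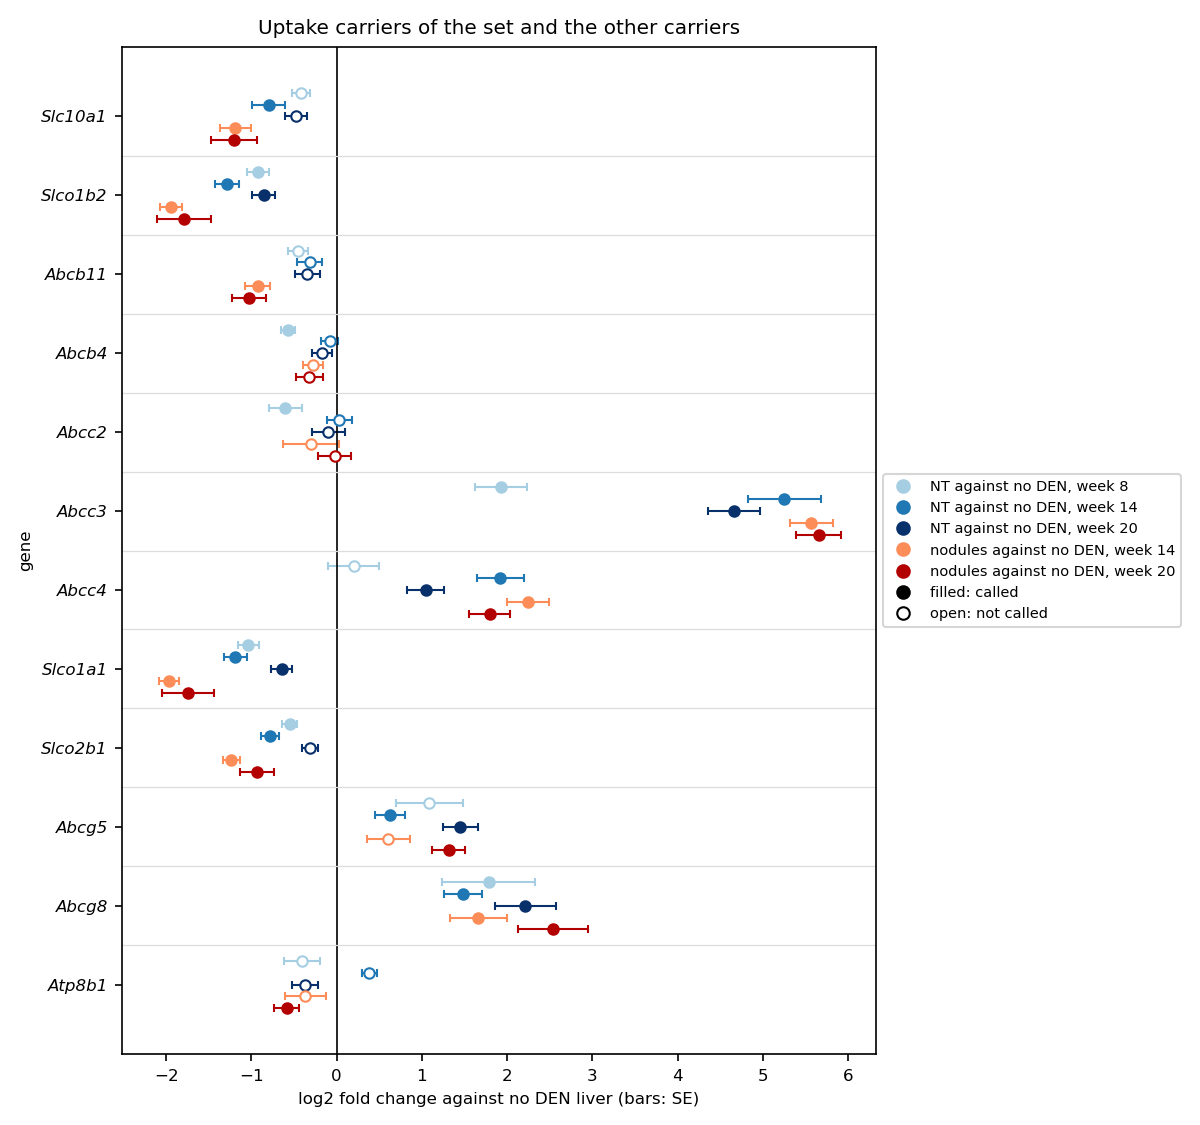
Log2 fold change against no DEN liver of the same age, with bars of 1 SE, for both uptake carriers of the set and the 10 tested genes of the carrier list; filled circles were called. Abcc3 lay between 1.92 and 5.65 and Slco1a1 between -1.96 and -0.64 over the 5 comparisons.

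Of the other synthesis enzymes tested, 2 of 11, 7 of 11 and 3 of 11 were called lower in NT liver at weeks 8, 14 and 20, and 9 of 12 in nodules at both times. None was called higher in NT liver and 1 in nodules. The shares of all genes called lower were 5.21%, 9.85% and 3.82% in NT liver and 15.2% in nodules. Their median was -0.40, -0.70 and -0.35 in NT liver and -0.90 and -0.82 in nodules. Abcd3, a peroxisomal transporter that imports bile acid precursors, fell by 0.60 (SE 0.14), 1.13 (SE 0.08) and 0.76 (SE 0.15) in NT liver and by 1.41 (SE 0.10) and 1.34 (SE 0.23) in nodules. Acox2, which oxidizes the side chain in peroxisomes, fell by 0.71 (SE 0.12) in NT liver of week 14 and by 1.08 (SE 0.15) and 1.26 (SE 0.22) in nodules. With totals alone the NT calls of Abcd3 at week 8 (-0.39) and Acox2 at week 14 (-0.29) were lost. No gene of this list then stayed called lower in NT liver of week 8, and only Abcd3 did at week 14. In week 14 nodules only Acox2 and Abcd3 stayed called lower, and most of the lower calls in week 20 nodules were lost. The gene called higher was Ch25h, the cholesterol 25-hydroxylase, at 2 to 3 counts per library in untreated liver of week 14 and 6 to 21 in nodules. It had 0 to 5 counts in untreated liver of week 20 and 9 to 19 in nodules, and no fold is given. Among the comparisons with no DEN liver, Ch25h passed the filter only in those with nodules, where its counts were higher. Its call is therefore not read as a result.

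Of the 13 tested partners and regulators, 2, 4 and 4 were called lower and 0, 1 and 1 higher in NT liver, and 6 lower and 1 higher in nodules at both times. The shares of all genes called lower were 5.21%, 9.85% and 3.82% in NT liver and 15.2% in nodules, and those called higher 16.5%, 22.8%, 14.3%, 23.9% and 23.6%. Their medians were -0.22, -0.40 and -0.17 in NT liver and -0.56 and -0.45 in nodules. Rxra, the dimer partner of FXR, was called lower in NT liver at weeks 14 and 20 (-0.79, SE 0.14 and -0.61, SE 0.15) and in nodules (-1.91, SE 0.49 and -1.41, SE 0.25). Prox1, a corepressor that binds LRH-1 and HNF4A, was called lower in NT liver of week 20 (-0.93, SE 0.21) and in nodules of weeks 14 and 20 (-1.25, SE 0.25 and -1.5, SE 0.18), calls that held with totals alone. Cebpa, a transcription factor of hepatocytes, fell by 0.87 (SE 0.11) and 0.76 (SE 0.11) in NT liver of weeks 14 and 20 and by 0.99 (SE 0.12) and 1.09 (SE 0.11) in nodules. With totals alone its week 14 calls were lost, at -0.44 in NT liver and -0.43 in nodules. Nr5a2, which encodes LRH-1, an activator of Cyp7a1 and Cyp8b1, was called lower in NT liver of week 8 (-0.84, SE 0.25) and in nodules of weeks 14 and 20 (-0.93, SE 0.31 and -1.08, SE 0.13). Hnf4a, a hepatocyte transcription factor, fell by 0.51 (SE 0.12), 0.54 (SE 0.11) and 0.85 (SE 0.14) in NT liver and by 0.88 (SE 0.10) and 1.14 (SE 0.13) in nodules. Mafg, a repressor of bile acid synthesis genes, was the gene called higher, by 0.67 (SE 0.09) and 0.69 (SE 0.10) in NT liver of weeks 14 and 20 and by 0.67 (SE 0.09) and 0.82 (SE 0.09) in nodules. With totals alone the calls of Hnf4a were lost in NT liver of weeks 8 and 14 (-0.31 and -0.12) and in week 14 nodules (-0.31), and those of Rxra in NT liver of both weeks (-0.37 and -0.38). Nr5a2 then lost its calls at week 8 (-0.63) and in week 14 nodules (-0.35).

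Of 6 tested FXR targets, 2, 1 and 0 were called lower in NT liver, beside 5.21%, 9.85% and 3.82% of all genes, and 2 in nodules at both times, beside 15.2%. In each of the 5 comparisons 1 was called higher, a share near that of all genes (16.5%, 22.8%, 14.3%, 23.9% and 23.6%), and 3 to 5 were not called. Their medians were -0.30, -0.27 and -0.26 in NT liver and -0.29 and -0.39 in nodules. The gene called higher was Pltp, a phospholipid transfer protein, by 0.53 (SE 0.16), 0.79 (SE 0.16) and 0.65 (SE 0.16) in NT liver and by 1.01 (SE 0.23) and 0.66 (SE 0.14) in nodules. Apoc2, the lipoprotein lipase cofactor, fell by 1.21 (SE 0.10) in NT liver of week 14 and by 1.25 (SE 0.21) and 0.97 (SE 0.30) in nodules, the last of these being lost with totals alone (-0.52). Abcb11 and Abcb4 stand in this list and in the carrier list. Of the 98 calls over these 4 lists and 5 comparisons, counting such a gene once, 44 were lost with scaling by totals alone, and 1, Nr1h3 in week 14 nodules, changed sign.

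Markers of other cells moved in the same comparisons. Of 12 hepatocyte markers, 4, 7 and 2 were called lower in NT liver, with medians of -0.37, -0.66 and -0.32, and 9 and 8 in nodules, with medians of -0.91 and -0.83. Apoa1, a hepatocyte marker, was called higher in NT liver of weeks 14 and 20 and in nodules. The cholangiocyte markers had medians of 0.85, 2.39 and 2.09 in NT liver and 3.03 and 2.99 in nodules, with 4 to 5 of 6 tested called higher and 1 lower in week 20 nodules. Dividing-cell markers had medians of 2.45, 2.71 and 1.20 in NT liver and 3.01 and 2.19 in nodules, with 6, 6, 3, 6 and 6 of 6 called higher. Of 7 stellate cell markers tested, 6, 5 and 4 were called higher in NT liver and 5 and 5 in nodules, with 1 lower in NT liver of week 14 and Col1a2 being at 0 in every library. Of 6 endothelial markers 5 were called higher in each comparison. Of the lymphocyte markers tested, 7 of 7, 2 of 5 and 2 of 6 were called higher in NT liver and 3 of 7 in nodules at both times, and of 7 macrophage markers 2, 2 and 3 in NT liver and 2 and 3 in nodules. Beside them, 16.5%, 22.8% and 14.3% of all genes were called higher in NT liver and 23.9% and 23.6% in nodules, so that the macrophage counts of weeks 8 and 14 were close to the share of all genes. Within untreated liver only 3 lymphocyte markers passed the filter for weeks 8 and 14, and 2 for weeks 14 and 20. Some of those tested above thus passed only through the DEN-treated group, and the lymphocyte counts are not read as a result. The shares called lower, to be set beside the hepatocyte markers, were 5.21%, 9.85% and 3.82% in NT liver and 15.2% in nodules. The part of these changes in the falls of the bile acid genes was not tested.

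Over the 24 rats, taking NT or no DEN liver, the genes whose log2 CPM was most like that of each member were found by Pearson's r among 9981 genes. The rats share their treatment groups, so the values are descriptions only. Slc27a5 and Slc10a1 were most like each other (r = 0.978). Baat was most like Sdc2 (r = 0.972), Dpys (0.969) and Proz (0.963), and Slco1b2 most like Kynu (0.973), Pygl (0.971) and Farp2 (0.964). Cyp8b1 was nearest to Slc19a2 (0.931), Cyp27a1 to F9 (0.907) and Nr1h4 to Inhbc (0.891). For Cyp7a1 the nearest were Tbx3 (0.747), Tnfaip2 (0.722) and Ces2e (0.719), for Nr0b2 Camkk2 (0.750) and for Cyp7b1 Dnajc18 (0.695). These 3 members thus had no gene as near to them as those nearest to the conjugation and uptake genes.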

How the data were processed

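Raw gene counts, deposited by the authors in 1 file per library, were used. Per the study's methods and the labels, stranded mRNA libraries were aligned to rn6 with STAR 2.7.1a and read pairs wholly inside the exons of a gene were counted with HTSeq, dropping pairs that matched several places. Groups came from the sample labels. Genes were filtered with filterByExpr and TMM factors were applied, and each contrast took the 2-sided quasi-likelihood test of edgeR 4.0.16 (robust fit, only the groups compared), with Benjamini-Hochberg adjustment over all genes tested. For testing, a rat's 2 nodules were summed; the CPM of single libraries are on a scale common to all 40. Time differences were tested as interactions. Every script of the fits was tested on simulated data. The 10 members, the pathway and marker lists, the naming rule (members in full; per list and comparison at most the 4 largest calls, a gene so named being given wherever it was called) and the tests were chosen with earlier results of these data known. Both tissues carry the rat's number in the labels, and their deviations from the group means were correlated within animals (r = 0.368 to 0.543 over 11596 genes), although the NT liver of rat H21 correlated best with nodules of another rat. Libraries of a group differed by at least 12.9 times Poisson sampling (chi-square per degree of freedom). Listed genes not analysed here were Slc51b, Slco1a4, Klb, Fgf15, Sirt1, Krt7 and Clec4g. Alternatives were DESeq2 1.42.0, RLE scaling, library totals alone, no filter, all 8 groups in a fit, leaving out each rat or the F rats, each nodule as a value of its own, nodule 1 or nodule 2 alone, the rat as block and a stricter threshold.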

Additional observations from a re-analysis of the deposited data

Results flagged for a closer look

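Among 80 combinations of a gene and a group, 6 had a library far from the others of its group (gap to its neighbour against the range of the group, Dixon's critical value at 95%). Chance flags about 1 in 20 groups. Cyp8b1 was high in untreated rat H09 of week 14, at 697 CPM against 567 for the next rat, and low in the week 20 NT liver of rat H26, at 215 CPM against 328. Cyp7b1 was high in the week 20 NT liver of rat H28, at 11.7 CPM against 5.84, and low in nodule 1 of rat F03 at week 20, at 3.59 CPM against 5.32. Baat was high in untreated rat H05 of week 8, at 1241 CPM against 1172. Nr0b2 was high in nodule 1 of rat H28 at week 20, at 55.2 CPM against 29.9.

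The NT effect on Nr1h4 differed between weeks 8 and 14, by -0.52 on the log2 scale (SE 0.13) (edgeR interaction test, adjusted p = 0.0192). That made 1 of the 10 genes, near the 8.96% of all genes called. The call was lost with library totals alone and in a fit of all 8 groups (edgeR interaction test, adjusted p = 0.0914 and 0.0755).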

How the results depend on the processing

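Of 1990 member values recomputed under the alternatives, 1914 kept their side of the threshold, 47 passed only under the alternative, 28 passed only in the main setting and 1 reversed: Nr0b2 in week 14 nodules, 0.55 with library totals alone. The number of the 10 genes called in NT liver at week 8 (main 4) was 2 with totals alone (2669 of 10812 genes) and 0 at the stricter threshold (855 of 10812), and 3 to 4 leaving out each rat. At week 14 (main 7) it was 2 at the stricter threshold (1676 of 11016 genes) and 6 to 7 leaving out each rat. At week 20 (main 3) it was 6 with DESeq2 (2256 of 12237 genes), 1 with totals alone (2689 of 10827), 5 without the F rats (1774 of 10827), 0 at the stricter threshold (565 of 10827) and 1 to 5 leaving out each rat (1 without H26, 5 without F03, H14, H15 or H25). In nodules against no DEN liver it was 6 to 7 at week 14 (main 6) and 8 to 10 at week 20 (main 8) leaving out each rat. For nodules against NT liver (main 0 and 0) DESeq2 gave 1 at week 14 (35 of 10000 genes) and 2 at week 20 (902 of 12229), and at week 20 the fit of all 8 groups gave 5 (1096 of 11596), the replicate block, which pairs tissues by rat, 5 (1693 of 11546), and leaving out a rat 0 to 1 (1 without H25). At week 14 the replicate block gave 0. The block was run for nodules against NT liver alone, since no other comparison shares rats. For the difference of the NT effect between weeks 8 and 14 (main 1), DESeq2 (1529 of 11276 genes), RLE scaling (1028 of 11219) and leaving out the F rats (1086 of 11400) each gave 2, totals alone (1852 of 11219) and all 8 groups (151 of 11596) gave 0, and leaving out each rat 1 to 5 (5 without F06, 2 without H17). Between weeks 14 and 20 it was 1 without the F rats (182 of 11295 genes) and 0 to 2 leaving out each rat (2 without F06; main 0), and for nodules DESeq2 gave 1 (29 of 14281; main 0). The counts from leaving out each rat stand without counts over all genes. The causes of these changes were not tested.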
